A study of Mus musculus with 4 samples.

Results

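The respiratory chain genes described here are those of complex III (ubiquinol-cytochrome c reductase), cytochrome c, complex IV (cytochrome c oxidase) and ATP synthase in mouse gastrocnemius muscle. Members were all genes of the probe annotation whose symbol starts with Uqcr, with Cox4, Cox5, Cox6, Cox7 or Cox8, or with Atp5, together with Cyc1 and Cycs, read through probe sets that carry a single gene symbol. This gave 43 genes of the 12393 so named on the array: 9 of complex III, 1 for cytochrome c, 16 of complex IV and 17 of ATP synthase. Each gene was read through its brightest probe set, and 42 of the 43 passed the filter on dim probe sets. The exception was Cox7c, a small subunit of complex IV.

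The series compared non-transgenic littermates (NTG, 2 samples) with mice carrying a transgene for PPARα, a nuclear receptor, in skeletal muscle (MCK-PPARa, 2 samples), with 1 array per sample of total RNA from this large muscle of the calf. MCK in the line's name stands for muscle creatine kinase, whose promoter is active in muscle fibres. Age, sex, strain and the number of founder lines do not appear in the labels. The samples of each group carry the replicate numbers 1 and 2. No label says what a number marks, so the spread behind each p-value is that of these 4 samples and may be technical. Since the muscle was taken whole, fewer cells of a type and less RNA per cell cannot be told apart.

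In mitochondria, complex III passes electrons from ubiquinol to the small carrier cytochrome c, complex IV passes them on to oxygen, and both build the proton gradient that ATP synthase uses to make ATP. All members are nuclear genes. Several subunits of complex IV exist as tissue forms, among them a set used in heart and skeletal muscle (Cox6a2, Cox7a1 and Cox8b) beside widely expressed counterparts (Cox6a1, Cox7a2 and Cox8a). PPARα is known for switching on genes of fatty acid oxidation, which feeds this chain, and the comparison asks whether the chain's own genes differ when PPARα is raised in muscle.

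Signals are the authors' deposited intensities on a linear scale, and a difference is MCK-PPARa minus NTG on the scale of log2(signal + 64.2), given with limma's standard error (SE, n = 2 per group). The probe set for Ppara read 633 (replicate 1) and 2674 (replicate 2) in controls, which carry no transgene. In transgenic muscle it read 7969 (replicate 1) and 15226 (replicate 2). The groups did not overlap and differed by 3.003 ± 0.62 on the log2 scale, with a limma adjusted p of 0.21 over all genes. With the replicate number as a block, the limma adjusted p was 0.00085. The tissue label was checked on fast-fibre markers, and muscle creatine kinase (Ckm) read between 168024 and 233214 on the 4 arrays. Median signals per array ran from 582 to 700.3. The replicate numbers differed in the control probe set for the 5′ end of 18S ribosomal RNA, at 2202 and 2313 on the replicate 1 arrays and 28.9 and 44.7 on the replicate 2 arrays. The ratio of 3′ to 5′ signal lay between 0.718 and 0.965 for Gapdh and between 0.787 and 0.883 for Actb. For 18S it was 0.642 and 0.855 on the replicate 1 arrays and 18.2 and 11.4 on the replicate 2 arrays (NTG, then MCK-PPARa).

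No member passed the test of MCK-PPARa against NTG muscle. Of the 42 members tested, 32 had a difference above 0 and 10 below, with a median of 0.25, against a median of 0.05 and 55.5% above 0 over all 8402 genes tested. The 841 brightest genes hold 38 of the members, and the 803 others among them had a median of -0.04, with 46.3% above 0. The limma adjusted p over all genes was at least 0.83 for every member. Over all genes 5 passed an adjusted p of 0.05, or 0.0595%. At an unadjusted limma p under 0.05 there was 1 member, Cox6b2, against 5.83% of all genes. With the replicate number as a block 0 members passed and the smallest limma adjusted p among them was 0.25, while 211 genes (2.51%) passed in that fit. At an unadjusted p under 0.05 in the blocked limma fit there were 5 of 42 members (Uqcr11, Cox6b2, Cox8b, Atp5d and Atp5md), against 15% of all genes. Cox6b2, counted in both fits, passed the filter only through its transgenic samples and so had to differ.

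In the limma fit without the block, the 95% interval of the difference included 0 for 41 of the 42 members. Of the members, 39 differed by less than 0.5 on the log2 scale in either direction (92.9%, against 75.2% of all genes). All genes include many dimmer ones, and this share was not computed for genes as bright as the members. The 95% interval of the difference reached a median of 0.81 to each side, and from 0.67 for Uqcrh to 1.68 for Atp5e. It left out a rise of 1, a doubling of the signal, for 14 of 42 members, and a fall of 1 for 35. In simulated data for this comparison on 8402 genes, the limma fit without the block recovered 0.6% of changes of 1 and 32.1% of changes of 2. Under that noise it would miss most such changes in single genes. The simulation drew the noise of each array independently, with no shift shared by same-numbered arrays. The blocked fit was not simulated.

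**Figure D1:**
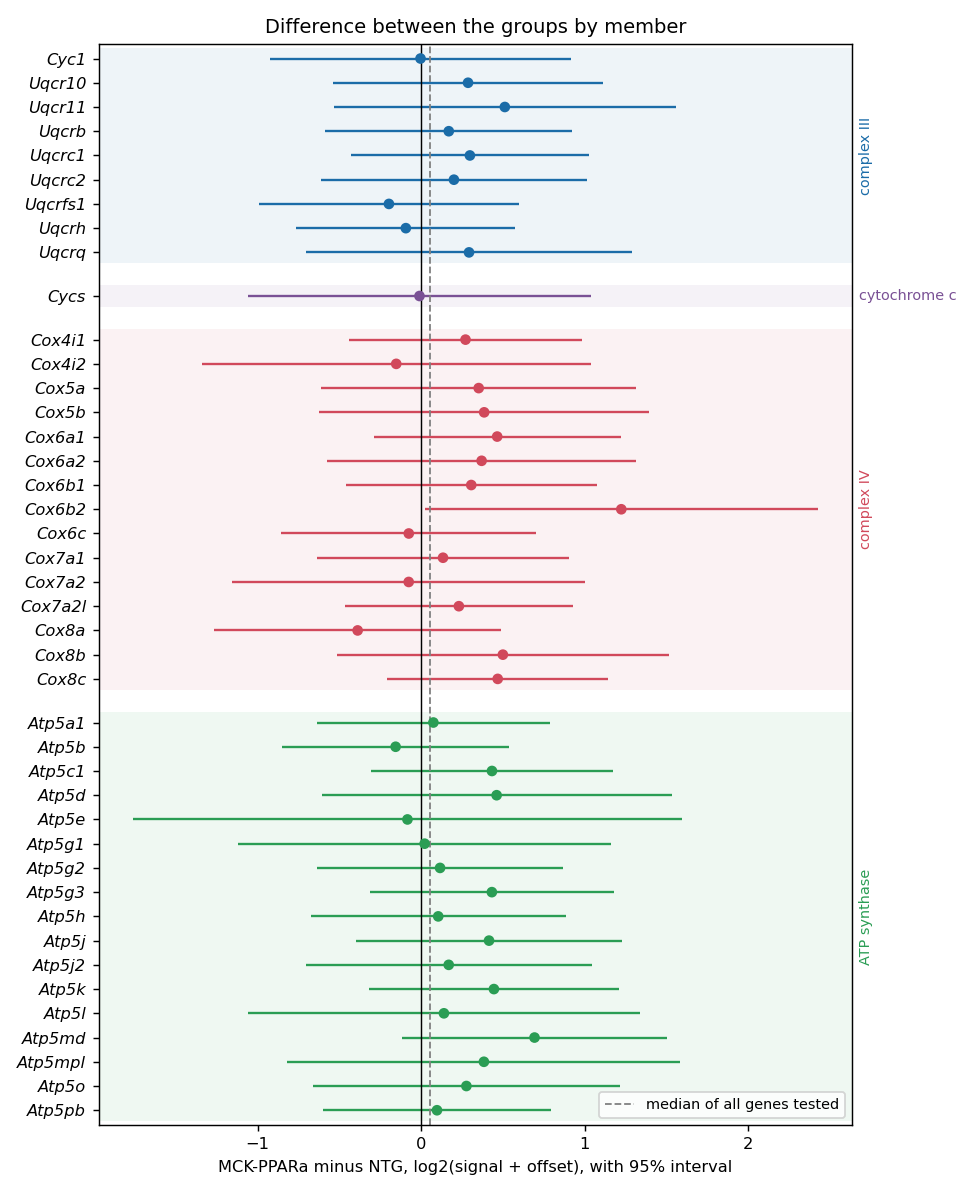
Difference MCK-PPARa minus NTG of log2(signal + 64.2) for each of the 42 tested members, with its 95% interval from limma (n = 2 per group), coloured by complex; the dashed line is the median of all genes tested (0.05). The intervals of all members but Cox6b2 include 0.

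For the higher direction, groups that do not overlap were about as frequent among the members as over all genes. In 9 members (21.4%) both transgenic samples read above both controls, against 20.4% of all genes. These were Uqcrc1, Cox4i1, Cox6a1, Cox6b2, Cox8c, Atp5c1, Atp5g3, Atp5k and Atp5md. Of these, Cox6b2 passed the filter only through its transgenic samples and so had to differ. In 1 member, Atp5b, both transgenic samples read below both controls, against 13.8% of all genes for that direction. In either direction these are 10 of 42 members, against 34.2% of all genes.

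**Figure D2:**
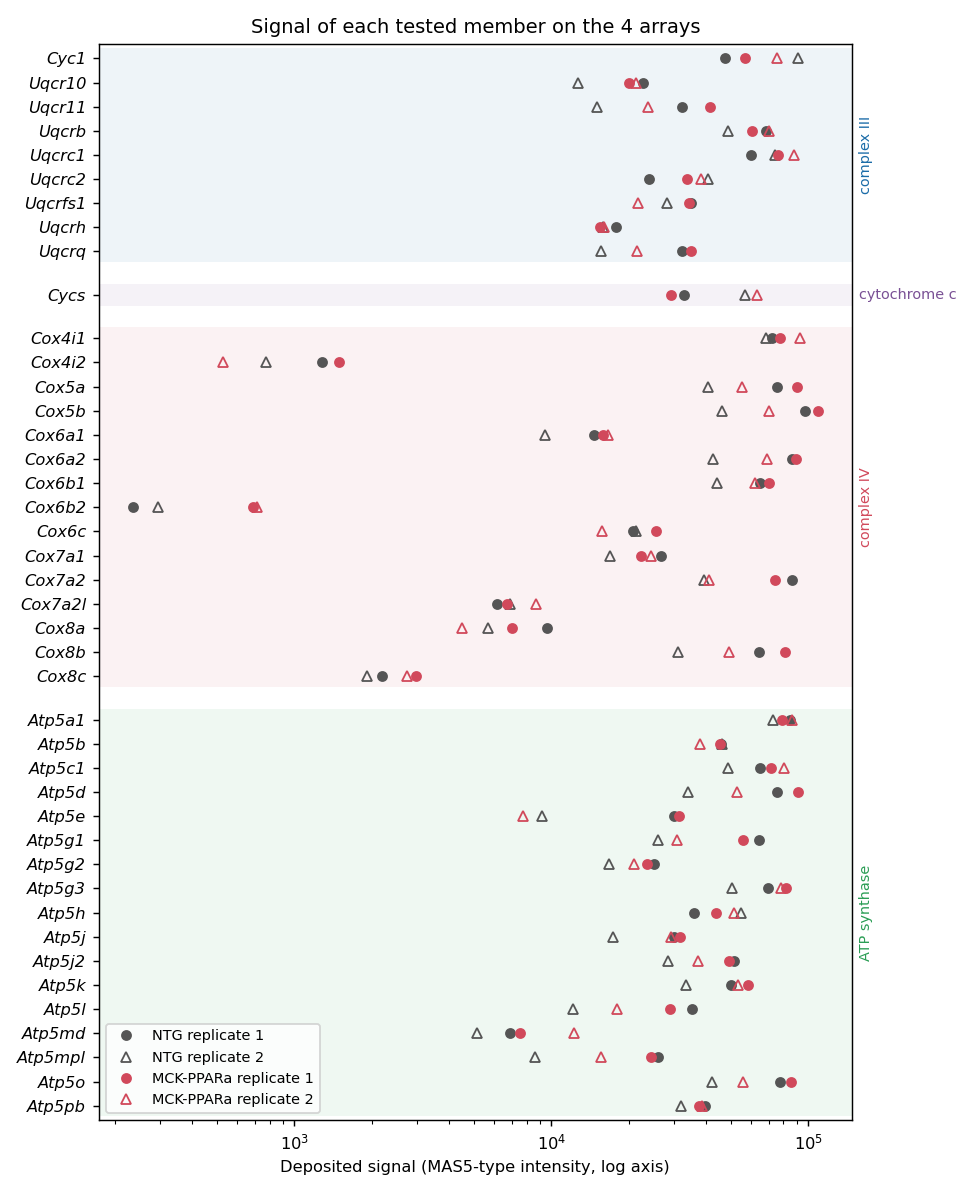
Deposited signal (log axis) of each tested member on the 4 arrays: grey for NTG, red for MCK-PPARa, filled circles for replicate 1 and open triangles for replicate 2. Only marks within a row can be compared, since each row is another probe set; in many rows the open grey triangle (NTG replicate 2) is lowest, as for Cox8b at 31038.

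Many widely expressed respiratory genes are known for promoters that bind nuclear respiratory factor 1 (NRF1) and the ETS factor GABP. PPARα binds direct repeats with a spacing of 1 base. RefSeq's promoter table (GRCm38.p6) held 32 of the 43 members, and the 250 bases before each start were searched on both strands. The NRF1 word, GCGCA and GCGC with any 1 base between them, was found in 5 of 32 members (15.6%), against 4.23% of the 27025 genes of the table and 9.30% of the 6782 tested genes that the table holds. The ETS word CCGGAAG was found in 8 of 32 (25%), against 7.83% and 15.2%. The repeat, 2 copies of AGGTCA with any 1 base between them, was found in 0 of the 32 and in 11 genes of the table, and this says only that these letters are not in these windows. The 11 members with either of the first 2 words had a median difference of 0.31, and the 20 tested members with neither had 0.25. The words do not overlap one another in the promoters shown.

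Promoters of 4 members are printed 5′ to 3′, with the words found in capitals. Cox6a1 and Atp5k carry such words, and Cox8a and Cox8b are an isoform pair whose signal ratio differed between the groups in both replicate numbers. Cox6a1 (chr5:115348959-115349208, minus strand) holds the NRF1 word from 162 to 153 and from 117 to 108 bases before the start and the ETS word, as its reverse complement, from 16 to 10. Atp5k (chr5:108434400-108434649, minus strand) holds the NRF1 word from 50 to 41 bases before the start. Cox8a (chr19:7217617-7217866, minus strand) and Cox8b (chr7:140900447-140900696, minus strand) hold none of the 3 words in this window.
Cox6a1: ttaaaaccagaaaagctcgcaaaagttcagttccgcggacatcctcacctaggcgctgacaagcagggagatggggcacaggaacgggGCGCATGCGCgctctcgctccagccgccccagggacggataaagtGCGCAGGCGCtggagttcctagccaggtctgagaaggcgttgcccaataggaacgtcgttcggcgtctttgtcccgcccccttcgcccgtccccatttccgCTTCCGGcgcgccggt
Atp5k: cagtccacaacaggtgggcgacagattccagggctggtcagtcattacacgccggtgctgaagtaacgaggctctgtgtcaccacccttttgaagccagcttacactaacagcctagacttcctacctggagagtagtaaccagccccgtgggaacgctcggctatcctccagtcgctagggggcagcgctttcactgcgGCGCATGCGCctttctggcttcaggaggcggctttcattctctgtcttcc
Cox8a: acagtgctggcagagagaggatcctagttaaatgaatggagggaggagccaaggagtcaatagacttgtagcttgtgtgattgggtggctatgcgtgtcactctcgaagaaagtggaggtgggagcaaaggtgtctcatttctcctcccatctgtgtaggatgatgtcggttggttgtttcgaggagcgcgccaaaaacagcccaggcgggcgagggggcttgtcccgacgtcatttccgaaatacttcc
Cox8b: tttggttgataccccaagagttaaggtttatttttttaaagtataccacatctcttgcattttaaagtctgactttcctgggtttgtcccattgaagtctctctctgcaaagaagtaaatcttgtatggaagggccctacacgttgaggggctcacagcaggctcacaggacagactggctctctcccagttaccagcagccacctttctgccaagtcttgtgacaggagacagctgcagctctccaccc

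Complex III genes had a median difference of 0.20 over 9 members, 6 above 0 and 3 below, and none passed. The median was 0.12 for the replicate 1 arrays alone and 0.25 for the replicate 2 arrays, against 0.05 and 0.06 over all genes. Only Uqcrc1 had groups that do not overlap. It was higher, or 11.1% of the members against 20.4% of all genes, and none was lower, against 13.8% of all genes. The differences ran from -0.20 for Uqcrfs1 to 0.51 for Uqcr11.

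Uqcr11, one of the small subunits, read 32227 and 14998 in NTG, replicate 1 first, and 41588 and 23661 in MCK-PPARa. The groups overlap, because each replicate 1 array lay above both replicate 2 arrays, yet the transgenic array was higher within each number, by 0.37 and 0.66 on the log2 scale. The difference was 0.51 ± 0.45 (limma adjusted p = 0.97). Uqcrc1, a core subunit that faces the matrix, read 59549 and 73994 in the NTG muscles, against 75872 and 87802 in the MCK-PPARa muscles. Both transgenic samples were above both controls, the nearer pair by a narrow margin, and the difference was 0.30 ± 0.31 (limma adjusted p = 0.97).

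Uqcr10, another small subunit, read 22670 and 12635 in the NTG muscles, against 20050 and 21287 in the MCK-PPARa muscles, so that NTG replicate 2 stood low and the other 3 arrays lay together (0.29 ± 0.36, limma adjusted p = 0.98). The other probe sets of Uqcr10 past the filter gave differences of 0.02 and -0.01. Uqcrq, also a small subunit, read 32231 and 15601 in the NTG muscles, against 35035 and 21558 in the MCK-PPARa muscles. Here the arrays paired by replicate number and not by genotype (0.29 ± 0.43, limma adjusted p = 0.98). Uqcrfs1, the Rieske iron-sulphur protein that takes electrons from ubiquinol, read 34816 and 28144 in the NTG muscles, against 34421 and 21647 in the MCK-PPARa muscles. The replicate 1 arrays were nearly equal and the transgenic replicate 2 array was the lowest of the 4 (-0.20 ± 0.34, limma adjusted p = 0.98).

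The other complex III genes had differences from -0.09 to 0.20. The second core subunit Uqcrc2 differed by 0.20, with 0.49 for the replicate 1 pair of arrays and -0.09 for the replicate 2 pair. Uqcrb differed by 0.17, but by -0.77 in its second probe set (10297 and 14638 in the NTG muscles, then 6418 and 7977), where both transgenic samples were below both controls. The hinge protein Uqcrh, which helps cytochrome c dock, differed by -0.09. Cyc1, the cytochrome c1 subunit that hands electrons to cytochrome c, read 47285 and 91187 in the NTG muscles, against 56813 and 75482 in the MCK-PPARa muscles. Both replicate 2 arrays were above both replicate 1 arrays, and the difference between the groups was -0.004 ± 0.40, from 0.26 for the replicate 1 pair of arrays and -0.27 for the replicate 2 pair.

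Cytochrome c itself (Cycs), the mobile carrier between complexes III and IV, read 32724 and 56800 in the NTG muscles, against 29164 and 62827 in the MCK-PPARa muscles. The difference was -0.01 ± 0.45 (limma adjusted p = 1.00), with -0.17 for the replicate 1 pair of arrays and 0.15 for the replicate 2 pair. In this probe set Cycs was, like Cyc1, brighter on the replicate 2 array of each group, by 0.79 in NTG and 1.11 in MCK-PPARa. The gene has 2 other probe sets, with differences of 0.42 and 0.34. The first of these was lower on the replicate 2 array of each group.

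Complex IV genes had a median difference of 0.31 over 15 tested members, with 11 above 0 and 4 below and none past the threshold. The median was 0.13 for the replicate 1 arrays alone and 0.49 for the replicate 2 arrays. In 10 of 15 (66.7%) the transgenic array was higher within both replicate numbers, against 35.2% of all genes. Groups did not overlap in 4 members, all higher, or 26.7% against 20.4% of all genes. Both shares count Cox6b2, which passed the filter only through its transgenic samples and so had to differ. The difference between complexes was not tested.

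Cox6b2, an isoform of subunit 6b known from testis, had the largest of the 42 differences. It read 235 and 293 in the NTG muscles, against 687 and 712 in the MCK-PPARa muscles, so that the transgenic samples lay together well above both controls. The difference was 1.22 ± 0.52, with a 95% interval from 0.02 to 2.42 (unadjusted p = 0.047 in limma, limma adjusted p = 0.83). It was 1.33 for the replicate 1 pair of arrays and 1.12 for the replicate 2 pair. The mean NTG signal lay below the filter's floor of 455, so the gene was tested only through its level in the transgenic samples and had to differ. Its size depends on the offset added before the logarithm, from 0.80 with 50% of the median signal to 1.39 with 1%. Without detection calls it cannot be said whether the NTG signal was above background.

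Cox8c, a further testis-type isoform, was steady within groups. It read 2186 and 1912 in the NTG muscles, against 2965 and 2744 in the MCK-PPARa muscles, a difference of 0.47 ± 0.29 (limma adjusted p = 0.96), or 0.43 and 0.51 within the 2 replicate numbers. Cox4i2, the lung-type isoform of subunit 4, read 1281 and 775 in the NTG muscles, against 1487 and 525 in the MCK-PPARa muscles. Its highest and lowest arrays were both transgenic, and the difference was -0.15 ± 0.51 (limma adjusted p = 0.99).

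The 3 muscle-type subunits of complex IV were all higher in the transgenic array of replicate 2, and Cox8b and Cox6a2 also in that of replicate 1. Cox8b read 63979 and 31038 in the NTG muscles, against 81190 and 48928 in the MCK-PPARa muscles (0.50 ± 0.44, limma adjusted p = 0.97), with 0.34 and 0.66 within the replicate numbers. Cox6a2 read 86600 and 42597 in the NTG muscles, against 89599 and 68759 in the MCK-PPARa muscles (0.37 ± 0.41, limma adjusted p = 0.97). For both genes NTG replicate 2 was the lowest array. Cox7a1 read 26696 and 16914 in the NTG muscles, against 22337 and 24341 in the MCK-PPARa muscles, with both transgenic samples between the controls (0.13 ± 0.33, limma adjusted p = 0.99).

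The widely expressed counterparts had differences of both signs. Cox6a1 read 14584 and 9442 in the NTG muscles, against 15865 and 16583 in the MCK-PPARa muscles, the transgenic samples above both controls (0.46 ± 0.33, limma adjusted p = 0.96). Cox8a read 9608 and 5654 in the NTG muscles, against 7040 and 4480 in the MCK-PPARa muscles, lower in the transgenic array within each number, by 0.445 and 0.331, although the groups overlap. Its difference was -0.39 ± 0.38 (limma adjusted p = 0.97). Cox7a2 read 86136 and 39121 in the NTG muscles, against 73965 and 40990 in the MCK-PPARa muscles, where the replicate numbers and not the genotypes set the arrays apart (-0.08 ± 0.47, limma adjusted p = 1.00).

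The remaining complex IV genes had differences from -0.08 to 0.39. Cox4i1, the common form of subunit 4, read 72030 and 68584 in the NTG muscles, against 77521 and 92833 in the MCK-PPARa muscles, higher in both transgenic samples (0.27 ± 0.31, limma adjusted p = 0.97). Cox6b1 read 64628 and 44214 in the NTG muscles, against 70518 and 61978 in the MCK-PPARa muscles, and the groups overlap (0.31 ± 0.33, limma adjusted p = 0.97). The matrix-side subunits Cox5b and Cox5a differed by 0.39 and 0.35, although the other probe sets of Cox5a gave 0.002 and -0.72. Cox7a2l, which takes part in joining complexes III and IV into supercomplexes, differed by 0.23, and Cox6c by -0.08. Cox7c was left out, with signals of 106.5, 89.8, 9.1 and 32.1 in its first probe set and 22.3, 296, 247 and 515 in its second (NTG replicates 1 and 2, then MCK-PPARa). The 2 probe sets gave opposite signs, -0.95 and 1.27.

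Because each array carries both isoforms of a pair, the ratio within the array was also compared. The ratio of Cox8b to Cox8a was higher in MCK-PPARa muscle by 0.89 on the log2 scale, a 1.85-fold difference, with 0.79 and 0.99 within the 2 replicate numbers. On the 4 arrays the log2 ratio of signals stood at 2.73 and 2.44 in controls and at 3.52 and 3.43 in transgenic muscle, which do not overlap. The exact permutation test of 2 against 2 samples gives a two-sided p of 0.333 here, the smallest it can give, and 0.778 after adjustment over the 7 pairs. The second probe set of Cox8a past the filter read 6445 and 4115 in the NTG muscles, against 7522 and 3741 in the MCK-PPARa muscles, a difference of 0.04, so the lower Cox8a signal rests on 1 probe set.

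In the other muscle-type pairs the groups overlapped. The ratio of Cox6a2 to Cox6a1 differed by -0.10 and that of Cox7a1 to Cox7a2 by 0.21 (exact permutation two-sided p = 0.667 and 1, n = 2 per group). Cox6b2 to Cox6b1 differed by 0.92, and the groups did not overlap (exact permutation two-sided p = 0.333), with the dim NTG signal of Cox6b2 as above. Cox4i2 to Cox4i1 differed by -0.42 with overlapping groups. The pair Cox7b2 and Cox7b was not analysed here.

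**Figure D3:**
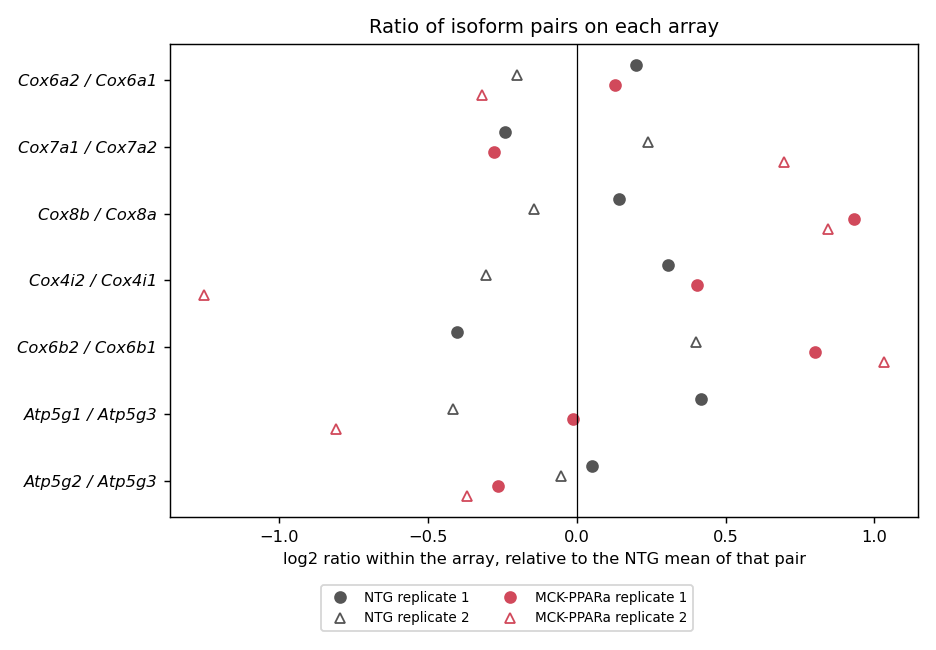
Log2 ratio of the 2 genes of each isoform pair on each array, set relative to the mean of the 2 NTG arrays for that pair; grey marks are NTG, red marks MCK-PPARa, circles replicate 1 and triangles replicate 2. The red marks lie apart from the grey for Cox8b to Cox8a, Cox6b2 to Cox6b1 and Atp5g2 to Atp5g3. They lie on both sides of the grey for Cox7a1 to Cox7a2 and Cox4i2 to Cox4i1. For the other pairs they overlap the grey but sit lower within each number. There the differences were -0.07 and -0.12 for Cox6a2 to Cox6a1, and -0.43 and -0.39 for Atp5g1 to Atp5g3.

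ATP synthase genes had a median difference of 0.17 over 17 members, with 15 above 0 and 2 below, and none passed. The median was 0.07 for the replicate 1 arrays alone and 0.41 for the replicate 2 arrays. Groups did not overlap in 4 members that were higher (23.5%, against 20.4% of all genes) and in 1 that was lower (5.88%, against 13.8%). By part of the enzyme, the median was 0.07 for the 5 genes of the F1 head and central stalk, 0.12 for the 3 genes of the c-ring, 0.19 for the 4 of the peripheral stalk and 0.38 for the 5 small membrane subunits. In the replicate 1 pair these medians were 0.07, -0.09, 0.11 and -0.05 in the same order, and in the replicate 2 pair 0.24, 0.32, 0.34 and 0.67.

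Among the small membrane subunits, Atp5md had the smallest p of the complex. It read 6875 and 5130 in the NTG muscles, against 7578 and 12260 in the MCK-PPARa muscles, so that both transgenic samples were above both controls but most of the difference came from the replicate 2 arrays (1.25, against 0.14 between the replicate 1 arrays). The difference was 0.69 ± 0.35 (limma adjusted p = 0.90). Atp5k, subunit e, which helps pair the enzyme into dimers, read 50057 and 33474 in the NTG muscles, against 58145 and 53430 in the MCK-PPARa muscles (0.44 ± 0.33, limma adjusted p = 0.96). NTG replicate 2 stood low there, while the other 3 arrays lay closer together. Atp5mpl differed by 0.38, Atp5j2 (subunit f) by 0.17 and Atp5l (subunit g) by 0.14.

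In the F1 head, which holds the catalytic sites, the central-stalk subunit gamma (Atp5c1) read 64958 and 48581 in the NTG muscles, against 71530 and 80427 in the MCK-PPARa muscles (0.43 ± 0.32, limma adjusted p = 0.96). The transgenic samples both exceeded the controls. The catalytic beta subunit (Atp5b) read 45655 and 46274 in the NTG muscles, against 45104 and 37711 in the MCK-PPARa muscles, slightly below both controls, with a difference of -0.16 ± 0.30 (limma adjusted p = 0.98). Its 95% interval ran from -0.85 to 0.54. The alpha subunit (Atp5a1) differed by 0.07 and the delta subunit (Atp5d) by 0.46. The epsilon subunit (Atp5e) had the widest spread of all members, with 29918 and 9185 in the NTG muscles, against 31407 and 7780 in the MCK-PPARa muscles, and a difference of -0.08 ± 0.72.

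The c-ring, which turns as protons pass, is built from 1 mature protein that 3 genes encode. Atp5g3 read 69825 and 50301 in the NTG muscles, against 81835 and 78185 in the MCK-PPARa muscles, above both controls in both transgenic samples (0.43 ± 0.32, limma adjusted p = 0.96). Atp5g2 read 25044 and 16769 in the NTG muscles, against 23571 and 20924 in the MCK-PPARa muscles (0.12 ± 0.33), and Atp5g1 read 64260 and 25957 in the NTG muscles, against 55869 and 30756 in the MCK-PPARa muscles (0.02 ± 0.49). In both of these the transgenic samples lay between the controls. The within-array ratio of Atp5g2 to Atp5g3 was lower in MCK-PPARa muscle by a like amount in both replicate numbers, -0.316 and -0.317, without overlap (exact permutation two-sided p = 0.333). The ratio of Atp5g1 to Atp5g3 differed by -0.41, with -0.43 and -0.39 within the replicate numbers and overlapping groups.

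In the peripheral stalk, which holds the head still, coupling factor 6 (Atp5j) read 30068 and 17401 in the NTG muscles, against 31763 and 29323 in the MCK-PPARa muscles (0.41 ± 0.35, limma adjusted p = 0.96). Again NTG replicate 2 stood apart from 3 similar arrays. The oligomycin-sensitivity subunit Atp5o differed by 0.28, Atp5h (subunit d) by 0.10 and Atp5pb (subunit b) by 0.10.

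The comparison within replicate number showed the same imbalance across the members. Between the replicate 1 arrays 26 of 42 members were higher in the transgenic sample, with a median of 0.12, and between the replicate 2 arrays 33 were, with a median of 0.44. The difference was larger between the replicate 2 arrays in 32 of 42 members (76.2%), against 50.3% of all genes. For the 32 tested subunits of complex I, which belongs to the same chain, the share was 93.8%. The members were above 0 in both in 20 cases (47.6%, against 35.2% of all genes) and below 0 in both in 3 (Uqcrfs1, Cox8a and Atp5b, against 26.3% of all genes).

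**Figure D4:**
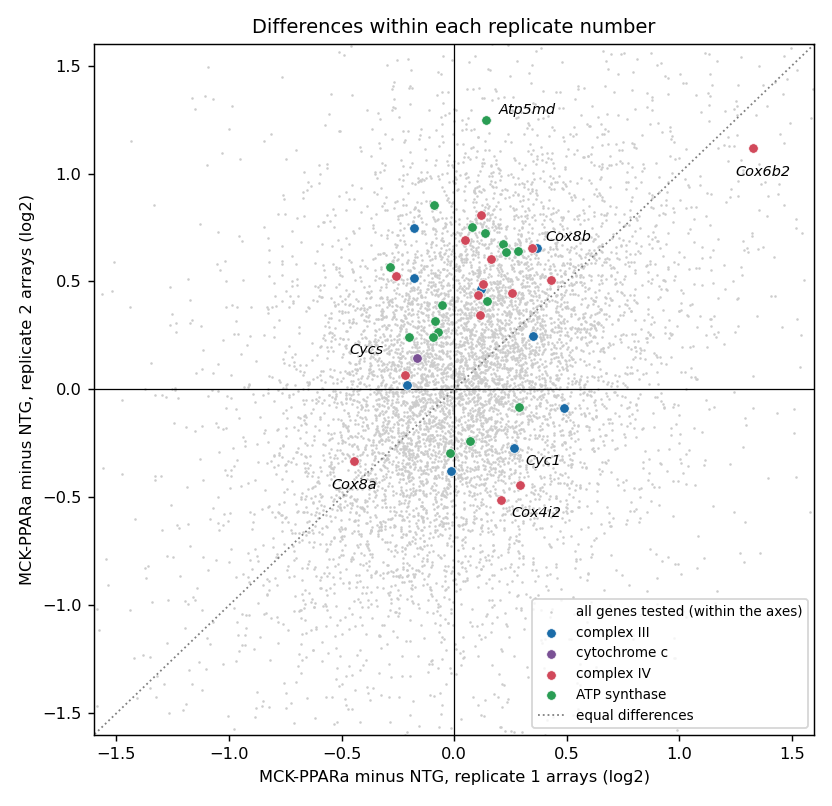
Difference MCK-PPARa minus NTG (log2) for the replicate 1 pair (x axis) and the replicate 2 pair of arrays (y axis) for each member, coloured by complex, over all genes tested in grey; the dotted line marks equal differences. Most members lie above the dotted line (32 of 42), Cox6b2 is far to the right of the others, and Atp5md is the highest.

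Replicate number set the members apart within each genotype too. In NTG the replicate 2 array was below the replicate 1 array in 33 of 42 members, by a median of -0.58 on the log2 scale, and in MCK-PPARa in 25 of 42, by a median of -0.15. Over all genes tested the medians were 0.06 and 0.07. Among the 841 brightest genes, which hold 38 of the 42 members, the 803 others had medians of -0.16 and -0.10. Both replicate 2 arrays were below their replicate 1 arrays in 23 members (54.8%, against 47.7% of those 803 bright genes and 29.8% of all genes). In NTG the gap was widest for Atp5e, at -1.70 (-2.0 in MCK-PPARa), Atp5mpl, at -1.58 (-0.64), and Atp5l, at -1.54 (-0.69). In the brightest probe sets it ran the other way in both groups for Cyc1, Cycs, Uqcrc1, Uqcrc2, Cox6b2, Cox7a2l and Atp5h. This depended on the probe set. Another probe set each of Cycs, Uqcrc2 and Cox7a2l was lower on the replicate 2 array in both groups. Another of Atp5h was lower there in NTG only. The remaining probe sets of Cycs and Cox7a2l moved in opposite directions in the 2 groups. The gap was not particular to the members. Complex I subunits had medians of -0.73 in NTG and -0.26 in MCK-PPARa, and 62.5% were lower on the replicate 2 array in both groups. Of the 11 tested fast-fibre markers 90.9% were lower in both, with medians of -0.20 and -0.37. The 18S control given above also differed by replicate number in both groups, and its part in the members' gap was not tested.

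**Figure D5:**
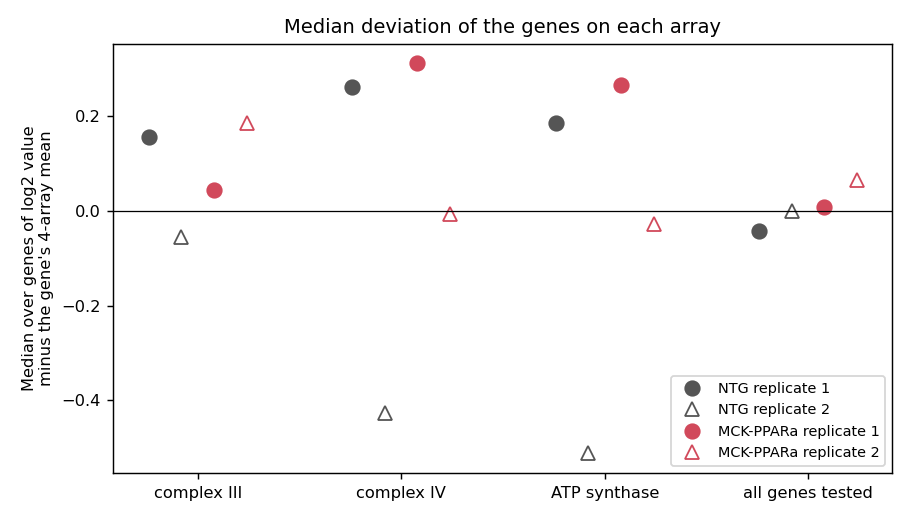
Median over the genes of each group of the log2 value minus the gene's mean over the 4 arrays, for complex III, complex IV, ATP synthase and all genes tested; grey is NTG, red MCK-PPARa, circles replicate 1 and triangles replicate 2. NTG replicate 2 is lowest for all 3 complexes (-0.05, -0.43 and -0.51), while the 4 arrays lie between -0.04 and 0.07 for all genes tested.

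The medians changed sign when NTG replicate 2 was left out. Without that array the median difference was -0.07 for complex III, -0.06 for complex IV and -0.11 for ATP synthase, and 16 of 42 members were above 0. That comparison sets NTG replicate 1 against the transgenic samples of both replicate numbers. The replicate 1 pair alone, which does not use NTG replicate 2 either, had positive medians of 0.12, 0.13 and 0.07. Without NTG replicate 1 the medians were 0.14, 0.56 and 0.67 in that order, with 33 of 42 above 0. The per-array median over all members stood at 0.17 and -0.44 in controls and at 0.25 and 0.03 in transgenic muscle (exact permutation two-sided p = 0.667, n = 2 per group).

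Other genes of the chain were read from lists of its known parts. Complex I subunits, which pass electrons into the same chain, had a median of 0.23 over 32 tested of 36 listed, with 27 above 0, 0.02 for the replicate 1 pair of arrays and 0.47 for the replicate 2 pair. The members' median relative to complex I differed between the groups by 0.07 (exact permutation two-sided p = 0.333, the smallest that 2 against 2 samples can give). The 4 complex II genes had a median of -0.04. None of them passed the test.

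Assembly factors and partners were mostly near 0, with a median of 0.01 over 27 tested of 38 listed, 15 above 0 and 12 below. None passed in the unblocked fit. Cox19, a copper-related assembly factor of complex IV, had the largest difference among them. It read 3720 and 1905 in the NTG muscles, against 8437 and 5588 in the MCK-PPARa muscles, both transgenic samples above both controls, a difference of 1.34 ± 0.40 (limma adjusted p = 0.49). Within the replicate numbers it was 1.17 and 1.52, and it passed once the replicate number was a block (limma adjusted p = 0.012, where 2.51% of all genes pass). Hccs, which attaches haem to cytochrome c, differed by 0.51 ± 0.32, and Surf1, which acts early in building complex IV, by 0.45 ± 0.29. Complex III factors had a median of -0.32 over 5 tested of 6, among them Uqcc3 (-0.58 ± 0.31) and Bcs1l (-0.54 ± 0.31), the translocase that inserts the Rieske protein. Neither passed (limma adjusted p = 0.92 and 0.95). The 2 ATP synthase factors tested of 3 had a median of -0.18.

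Nuclear regulators of respiratory genes had a median of 0.02 over 10 genes, 5 above 0 and 5 below, and none passed. The coactivator Ppargc1b differed by 0.56 ± 0.37, from -0.08 and 1.201 within the 2 replicate numbers. The mitochondrial transcription factor Tfb2m differed by -0.57 ± 0.41. The coactivator Ppargc1a differed by -0.04 and Nrf1 by 0.08.

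Oxidative fibres are known to hold more mitochondria, so markers of fibre types and other cell types were read beside the members. The summed signal of 9 slow-fibre markers was 132651 and 84933 in the NTG muscles, against 74973 and 57997 in the MCK-PPARa muscles, and their median difference was -0.55. In the limma fit with the replicate block 4 of the 9 passed an adjusted p of 0.05, against 2.51% of all genes. None passed in the unblocked fit. Of the 9, 7 had a difference below 0, the largest that of the slow myosin Myh7 (-2.74 ± 0.49), and 2 were above 0 (Casq2 at 0.57 and Tpm3 at 0.13). The sum of 11 fast-fibre markers was 1621180 and 1385630 in the NTG muscles, against 1785970 and 1502780 in the MCK-PPARa muscles, with a median difference of 0.11. The sum of the 6 adipocyte markers on the array was 8185 and 7726 in the NTG muscles, against 29339 and 18103 in the MCK-PPARa muscles, and the 4 tested were all above 0, among them Fabp4 (1.93 ± 0.38) and Adipoq (1.34 ± 0.31). These 2 passed in the blocked fit (limma adjusted p = 0.0034 and 0.020), and none of the 4 passed in the unblocked fit. No marker of these lists was at 0. Macrophage markers summed to 8548 and 9427 in controls and to 10903 and 11516 in transgenic muscle (median difference 0.28 over 5 tested of 8), and endothelial markers to 12032 and 14535 and to 16469 and 17656 (0.12 over 8). Those of fibroblasts summed to 239375 and 201153 and to 265854 and 237768 (0.11 over 7), of red blood cells to 5148 and 4224 and to 5813 and 5963 (0.32 over 3 of 5), and of nerve to 15417 and 10866 and to 13882 and 14350 (0.05 over 3 of 6). Their part in the members' values was not tested.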

How the data were processed

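The authors deposited 1 table of signal intensity for 22690 probe sets on 4 arrays, made with MAS5 per the submitters' processing notes. Its version and settings are not named in those notes, and no detection calls were used. The 2% trimmed mean lay between 1500.56 and 1500.68 on every array, so no further normalization was done. The 64 control probe sets were left out. Of the others 20380 had 1 symbol, 691 several and 1555 none here, and no symbol differed from RefSeq's by Entrez ID.

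The scale was log2(signal + 64.2), an offset of 10% of the median signal. A probe set was kept if its mean signal reached the 40th percentile (455), and a gene was read through its brightest one. The 2 groups were compared by limma 3.58.1 in R 4.3.3 (eBayes with a variance trend, two-sided, Benjamini-Hochberg over 8402 genes, 0.05). The fit was tested on simulated data: 4.65% of its calls were false. Probe sets of the _s_at and _x_at types, which can read several genes, stood for 8 members.

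Signals are printed for members of isoform pairs and for the 5 smallest p of each complex, complex III including cytochrome c. Of each list of other genes, up to 3 with the smallest p are named. Beyond this rule, the signals of Cyc1, Cycs, Atp5b and Atp5e, and the genes Ppargc1a, Nrf1, Casq2 and Tpm3, were chosen after their values were seen. The printed signals of Cox19, of both Cox7c probe sets and of the second probe sets of Uqcrb and Cox8a also lie outside the rule. The members, lists, roles and promoter words were chosen with earlier results of these data known. The 14 alternatives stand in the closing section.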

Additional observations from a re-analysis of the deposited data

Results flagged for a closer look

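The comparison used 1 probe set per gene, and 30 other probe sets of members passed the filter on dim signals. In 6 of them (20%, against 16% of 4051 such probe sets over all genes) both MCK-PPARa samples lay above both NTG samples. The differences were 0.39 for Atp5h, 0.52 for Atp5k, 0.29 for Atp5pb, 0.68 for Cox6a1, 0.34 for Cycs and 0.40 for Uqcrc2. For Atp5k and Cox6a1 the brightest probe set did not overlap between the groups either. For Atp5h, Atp5pb, Cycs and Uqcrc2 it did overlap. In 3 of the 30 both MCK-PPARa samples lay below both NTG samples, with differences of -0.07 for Atp5a1, -0.72 for Cox5a and -0.77 for Uqcrb. The share over all genes was not computed for that direction. Of the 30, 17 had the sign of the brightest probe set of their gene and 13 the opposite sign.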

How the results depend on the processing

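No member passed in the comparison as reported or in any of the 14 alternatives. The smallest limma adjusted p among the members ran from 0.25 with the replicate number as a block to 0.93 without MCK-PPARa replicate 2. The count of all genes called was 5, and 2 under quantile normalization, 1 under median centring, 3 with no variance trend, 16 with the mean of probe sets per gene and 211 with the replicate block, and 72 to 150 with 1 array left out (leaving out a control gave 80 for replicate 1 and 72 for replicate 2, and leaving out a transgenic sample gave 150 for replicate 1 and 86 for replicate 2). Same-numbered arrays deviated together (r = 0.47 over 8402 genes and 0.73 over the 42 members, where genes are no independent replicates), but 2 pairs sharing a number do not establish pairing, and no member's call changed under the block. Ppara passed with the block at a difference of 3.003 (limma adjusted p = 0.00085), and with 1 array left out at 2.02 to 3.99. With 1 array left out, 1 group is a single sample that is assumed to vary like the other group, so these calls and counts take their spread from that group alone.

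Median differences with 1 array left out ran from -0.07 to 0.20 for complex III, -0.06 to 0.56 for complex IV and -0.11 to 0.67 for ATP synthase. With the mean of probe sets per gene the median of complex III was -0.00398. The ratio of Cox8b to Cox8a was 0.73 under quantile normalization and 0.67 with the mean of probe sets, and that of Atp5g2 to Atp5g3 -0.16 under quantile normalization. With 1 array left out the ratio of Cox8b to Cox8a ran from 0.75 to 1.03, and those of Cox4i2 to Cox4i1 (-1.25 to 0.41), Cox6a2 to Cox6a1 (-0.32 to 0.13), Cox7a1 to Cox7a2 (-0.28 to 0.70) and Atp5g1 to Atp5g3 (-0.83 to 0.0056) changed sign. Median centring moved the median of all genes from 0.05 to -0.05 and left 29 of 42 members above 0.

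Of 416 single-member values with all 4 arrays 10 changed sign: Atp5g1 under quantile normalization (-0.0731) and median centring (-0.0808), Atp5a1 (-0.0274) and Atp5pb (-0.00535) under median centring, and with the mean of probe sets Atp5a1 (-0.0921), Cox5a (-0.12), Cox6c (0.0929), Cycs (0.25), Uqcrb (-0.30) and Uqcrq (-0.0519). With 1 array left out, 39 of 168 changed sign, in 27 members, with these ranges: Atp5e (-1.09 to 0.92), Atp5h (-0.20 to 0.41), Cox4i2 (-0.85 to 0.55), Cox7a2 (-0.64 to 0.49), Uqcrc2 (-0.18 to 0.58), Atp5a1 (-0.031 to 0.18), Atp5d (-0.11 to 1.03), Atp5g1 (-0.63 to 0.67), Atp5g2 (-0.17 to 0.40), Atp5j2 (-0.26 to 0.59), Atp5l (-0.63 to 0.91), Atp5mpl (-0.41 to 1.18), Atp5o (-0.17 to 0.72), Atp5pb (-0.056 to 0.25), Cox5a (-0.10 to 0.80), Cox5b (-0.15 to 0.92), Cox6a2 (-0.14 to 0.88), Cox7a1 (-0.19 to 0.46), Cox8b (-0.022 to 1.02), Cyc1 (-0.48 to 0.47), Cycs (-0.56 to 0.54), Uqcr10 (-0.13 to 0.71), Uqcr11 (-0.039 to 1.06), Uqcrb (-0.072 to 0.41), Uqcrq (-0.23 to 0.81), Cox6c (-0.42 to 0.27) and Uqcrfs1 (-0.53 to 0.14). The other 15 members changed sign in no alternative. The restriction to _at and _a_at probe sets was added after seeing the data. The cause of these shifts was not tested. The number of arrays limits all of this.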
